A study of Homo sapiens with 6 samples.

Results

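The 40 genes described here are early response genes, most of them classical immediate early genes, whose mRNAs are made within minutes of a stimulus and are short-lived. They were given as a list of gene names (FOS and JUN family members, EGR, IER, KLF, DUSP and NR4A genes, MYC and others). Membership rests on the name alone and on no measured value of the gene, but the list was drawn up with earlier results of these data known. All 40 names were found among the 58735 genes of the count table, and all 40 passed the filter on low counts, which left 17574 tested genes. The values are RNA-seq read counts per gene from SW480, a human colorectal cancer cell line, with 3 control libraries and 3 libraries of cells that stably carry shRNA against CNOT7, a catalytic subunit of the CCR4-NOT deadenylase. Neither group received a treatment, and the study's text names HCT116, another colorectal cancer line, for its RNA sequencing. The shRNA construct behind each library, the control construct beyond its label and whether libraries came from separate cultures were not stated, so p-values measure the spread between these libraries, which may be technical.

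Immediate early genes are switched on without new protein synthesis, mainly by MAP kinase signalling to factors such as SRF at CArG boxes and CREB at cAMP response elements. Many of their mRNAs carry AU-rich elements in the 3′ UTR, repeats of AUUUA, which proteins such as ZFP36 bind to bring in CCR4-NOT, and removal of the poly(A) tail by that complex is a first step of their decay. A steady-state level as measured here depends on both synthesis and decay, which cannot be told apart without a time course. In these bulk libraries, fewer cells that express a gene and less of its RNA per cell cannot be told apart either.

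The AU-rich nonamer TTATTTATT (written as DNA), a core of such elements, was found in the annotated 3′ UTR of 9 of the 40 genes. One window is shown for each of the 5 that passed the test of the knockdown and for DUSP1, which is not called, because these 6 mRNAs share the element and did not share a direction. The DNA is given on the gene's strand, 5′ to 3′, from the GENCODE 29 transcripts on GRCh38, and capitals mark the nonamer.
FOS: tttttaatTTATTTATTaagatgga
FOSL2: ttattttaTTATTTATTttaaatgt
MAFF: cccactgtTTATTTATTgcacggat
IER5: tcctttatTTATTTATTtatttaat
PIM1: gtatttatTTATTTATTtatttggt
DUSP1: gctggtccTTATTTATTtaacttca

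The FOS window lies at chr14:75282062-75282086 on the plus strand, near the end of a 3′ UTR of 806 bases. The FOSL2 window is at chr2:28416357-28416381 on the plus strand, and the MAFF window at chr22:38215916-38215940 on the plus strand. In IER5 (chr1:181092449-181092473, plus strand) and PIM1 (chr6:37174991-37175015, plus strand) the window is the middle one of 3 overlapping nonamers. The DUSP1 window is at chr5:172768645-172768669 on the minus strand and is the first of 2 in that 3′ UTR.

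As a check of the labels, CNOT7 was measured at 169.1, 191.1 and 175.8 CPM (counts relative to the library total, with TMM scaling) in the controls and at 43.4, 47.2 and 38.6 CPM in the knockdown, a log2 fold change of -2.05 (SE 0.0734; adjusted p = 2.64e-12 with edgeR's quasi-likelihood test and Benjamini-Hochberg correction, as for all adjusted p-values here). Total counts ran from 23788451 to 29104872 per library. Replicate libraries differed beyond sampling noise (chi-square per gene 3.26 to 10.9). Epithelial markers summed to 5554 to 5972 CPM in the controls and 5132 to 5683 in the knockdown, with CDH1 and VIL1 called higher and KRT8 and KRT19 lower. Leukocyte, fibroblast and endothelial markers summed to at most 11.95 CPM in any library. The leukocyte sum (2.41 to 4.07 against 4.17 to 4.43 CPM) and the endothelial sum (1.68 to 2.33 against 2.75 to 3.48 CPM) were higher in every knockdown library than in any control. PECAM1 and PTPRC, defining markers of endothelium and leukocytes, averaged no more than 0.310 and 0.0448 CPM in either group. PECAM1 averaged 0.202 CPM in the controls and 0.310 in the knockdown. Its groups overlapped, with counts of 5, 4 and 6 in the controls and 5, 5 and 17 in the knockdown. VWF, another endothelial marker, was higher in every knockdown library (1.76 ± 0.385 and 2.56 ± 0.556 CPM) but was not called (adjusted p = 0.0936). The part of these markers in the results was not tested.

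In the knockdown, 18 of the 40 genes passed the test at an adjusted p of 0.05, which is 45.0% against a background of 25.2% over all tested genes. Only 5 of them were higher (12.5%, background 13.3%) and 13 were lower (32.5%, background 11.9%). FOS, EGR2, MYC, KLF10 and BHLHE40 were the 5 that rose. The 13 that fell were FOSL1, FOSL2, JUN, JUND, MAFF, EGR3, IER3, IER5, KLF6, HES4, PIM1, NFKBIZ and RND3. The median log2 fold change of the 40 genes was -0.05, against 0.0039 over all tested genes.

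The changes were small. Of the 18 called genes, only EGR2 (up), JUND and RND3 (both down) reached an absolute log2 fold change of 0.5. The values of the 3 knockdown libraries lay wholly above or below the 3 controls in 20 of the 40 genes (50%, background 38.8%), with 6 above (15.0%, background 20.6%) and 14 below (35.0%, background 18.2%).

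The listed genes were mostly well expressed, and calls were more frequent among well expressed genes. Among tested genes with a mean of at least 10 CPM, 30.2% were called, 12.5% higher and 17.8% lower, with a median log2 fold change of -0.04. Of the 31 listed genes at that level, 4 were called higher and 13 lower, with a median of -0.18. The share called lower was thus above the background in this range as well, 41.9% against 17.8%, and the share called higher was 12.9% against 12.5%. The level of 10 CPM was set after the values were seen. DUSP8, KLF2, ATF3, FOSB and SGK1, none of them called, lay just below it, at means from 8.55 CPM upward. The 41.9% and the median of -0.18 therefore depend on where the level was set.

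**Figure D1:**
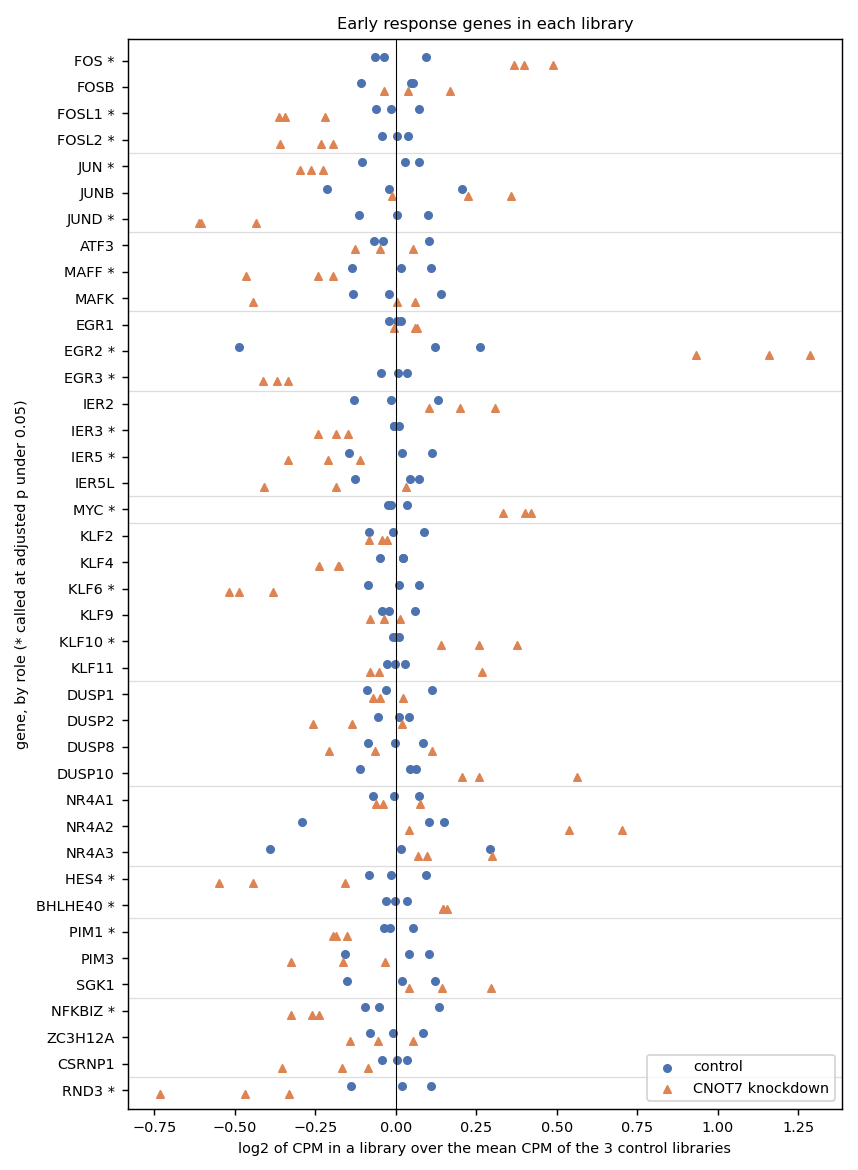
Points show, for each of the 40 early response genes (rows, grouped by role), the log2 ratio of a library's CPM to the mean of the 3 control libraries, with circles for control and triangles for CNOT7 knockdown, and an asterisk on the 18 genes called. Knockdown triangles lie to the right of the control circles for FOS, EGR2, MYC, KLF10 and BHLHE40 and to the left for JUND, KLF6, EGR3 and RND3, while EGR1, ATF3, DUSP1 and NR4A1 overlap.

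The AP-1 subunits split. AP-1 is a dimer of a FOS family and a JUN family protein, or of 2 JUN family proteins, that binds TGACTCA sites in promoters and enhancers. FOS, the founding member and the most rapidly induced one, measured 92.6, 84.7 and 83.0 CPM in the controls and 114.3, 111.9 and 121.8 CPM in the knockdown. All 3 knockdown libraries were above all 3 controls, with a log2 fold change of 0.42 (SE 0.0611, adjusted p = 7.43e-05). The gene lies at chr14:75278774-75282230 on the plus strand of GRCh38.

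FOSL1 and FOSL2, FOS relatives without its strong transactivation domain that accumulate later, moved the other way. FOSL1 fell from 98.7 ± 4.62 to 79.7 ± 4.32 CPM (SD, n = 3 each), a log2 fold change of -0.31 (adjusted p = 0.00135). FOSL2 fell from 152.2 ± 4.20 to 127.0 ± 7.42 CPM, by 0.26 on the log2 scale (adjusted p = 0.00297). FOSB, whose product resembles FOS, was low in both groups, at 8.80 ± 0.550 and 9.17 ± 0.667 CPM, with a log2 fold change of 0.06 and a 95% interval from -0.17 to 0.29.

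In the JUN family, JUND had the most negative fold change of the 40 genes. It measured 68.7, 63.2 and 73.3 CPM in the controls and 44.8, 45.0 and 50.6 CPM in the knockdown. The groups were well apart, and the log2 fold change was -0.55 (SE 0.0724, adjusted p = 2.75e-05). JUND, the JUN subunit that resting cells keep at a steady level, is a gene without introns at chr19:18279760-18281622 on the minus strand. JUN, the partner that gives AP-1 most of its activity, measured 89.1, 81.2 and 91.9 CPM against 71.2, 72.8 and 74.8 CPM. Its groups did not overlap, and the log2 fold change was -0.26 (SE 0.0620, adjusted p = 0.00490). JUNB, a weaker activator that competes with JUN, was at 28.2 ± 4.11 and 32.4 ± 4.13 CPM, with a log2 fold change of 0.20 and an interval from -0.02 to 0.42 (adjusted p = 0.188).

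Per length, in RPKM (CPM per kilobase of the gene's annotated exons), the FOS family transcripts summed to 101.9 ± 3.04 in the controls and 97.5 ± 3.19 in the knockdown, with ranges that overlap. Within that sum FOSL1 held the most in both groups, 51.3% ± 1.63 and then 43.3% ± 1.84, and FOS went from 26.3% ± 1.42 to 36.8% ± 1.45. The order of these 2 depends on the lengths used, 1887 bases for FOSL1 and 3238 for FOS. Without division by length, FOS was above FOSL1 in the knockdown (116.0 against 79.7 CPM). The JUN family summed to 76.9 ± 5.78 RPKM and then 63.5 ± 4.16 RPKM, with ranges that do not overlap. The share of JUND in it was 47.8% ± 1.44 in the controls and 39.6% ± 0.823 in the knockdown, that of JUNB 20.1% ± 1.95 and 27.9% ± 2.05, and that of JUN 32.1% ± 0.581 and 32.5% ± 1.63. These sums and shares are descriptions of transcripts and carry no test.

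**Figure D2:**
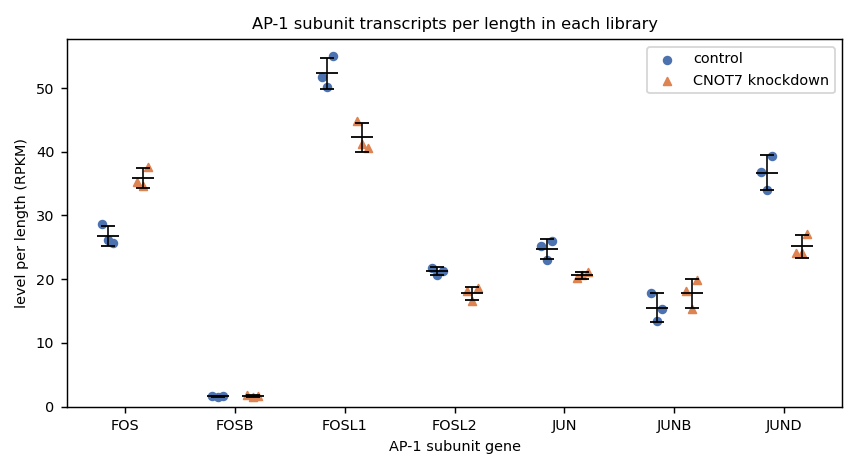
Level per length (RPKM, linear axis from 0) of the 7 AP-1 subunit transcripts in each control library (circles) and knockdown library (triangles), with black bars for the mean ± SD of 3 libraries. FOS lies higher in the knockdown, FOSL1, FOSL2, JUN and JUND lie lower, and FOSB and JUNB overlap between the groups.

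Among the other basic leucine zipper factors, MAFF, a small MAF protein that lacks a transactivation domain, fell from 39.9 ± 3.40 to 32.5 ± 3.18 CPM, a log2 fold change of -0.30 (adjusted p = 0.0162). Its relative MAFK was at 46.4 ± 4.45 and 43.0 ± 7.72 CPM, with a log2 fold change of -0.11 and an interval from -0.33 to 0.11. ATF3, a stress-induced factor, measured 10.4, 9.20 and 9.38 CPM in the controls and 9.33, 10.002 and 8.83 CPM in the knockdown. Those values interleave, and the log2 fold change was -0.04 (interval -0.27 to 0.19).

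The 3 EGR zinc finger genes, which bind GC-rich promoter elements, gave 3 different outcomes. EGR1, the most abundant, measured 229.3, 225.5 and 231.3 CPM in the controls and 238.3, 227.8 and 239.5 CPM in the knockdown. The groups overlapped, and the 95% interval of its log2 fold change of 0.04 ran from -0.07 to 0.15. EGR2 measured 1.01, 0.602 and 0.918 CPM against 2.06, 1.88 and 1.61 CPM. The groups were apart, and the log2 fold change of 1.12 (SE 0.265, adjusted p = 0.00479) was the highest of the 40 genes. It rests on raw counts of 26, 14 and 23 against 58, 52 and 48, and EGR2 had the lowest level per length of the list, 0.229 RPKM in the controls. EGR3 fell from 43.4 ± 1.201 to 33.5 ± 0.885 CPM, a log2 fold change of -0.37 (adjusted p = 0.000592).

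The best known inducer of such genes through CArG boxes is SRF. In RefSeq promoters (GRCh38.p14, from 250 bases before to 50 after a start site), the CArG box was found in EGR1, EGR2 and RND3 among the 33 listed genes with an entry, and in 1.60% of all 27305 genes of the table. EGR3, FOSL1, IER3, KLF10, MAFK, MYC and NR4A2 had no entry. The sites are shown because these 3 promoters share the motif while their transcripts were not called, higher and lower, with capitals for the CArG box on the strand of the gene.
EGR1, first site: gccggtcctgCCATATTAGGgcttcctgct
EGR1, second site: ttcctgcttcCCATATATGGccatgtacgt
EGR2: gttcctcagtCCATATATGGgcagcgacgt
RND3: ctcccaggctCCATAAAAGGggaggaggca

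The EGR1 windows are at chr5:138465364-138465393 and chr5:138465386-138465415 on the plus strand, EGR2 at chr10:62816418-62816447 and RND3 at chr2:150487748-150487777, both on the minus strand. The cAMP response element TGACGTCA, read on both strands, was in 5 of the 33 (DUSP1, DUSP8, JUND, KLF11 and MAFF; 15.2% against 2.25% of all genes), of which JUND and MAFF were lower and 3 were not called. Its first 5 bases, TGACG, which every full element contains, were in 18 of the 33 (54.5% against 28.4%), of which 2 were higher, 4 lower and 12 not called. The AP-1 site TGACTCA was in the FOSL2 promoter alone (3.03% against 6.05%). A match is a description of these letters and not of a bound site. Sequence outside these windows was not searched, so a gene without a match may carry the site elsewhere.

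RND3, a small GTP-binding protein that loosens actin stress fibres, measured 26.3, 31.3 and 29.4 CPM in the controls and 17.5, 23.0 and 21.0 CPM in the knockdown. The groups did not overlap, although the libraries of each group spread more than those of most listed genes. The log2 fold change was -0.50 (SE 0.0988, adjusted p = 0.00121). The gene is at chr2:150468195-150539011 on the minus strand.

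MYC, the growth-promoting transcription factor whose mRNA is a textbook case of rapid decay, measured 255.1, 244.8 and 246.3 CPM in the controls and 313.0, 328.6 and 332.8 CPM in the knockdown. Every knockdown library was above every control, with a log2 fold change of 0.39 (SE 0.0505, adjusted p = 2.52e-05), or 1.31-fold. Per length MYC was the second most abundant of the 40 transcripts, at 82.9 ± 1.85 RPKM in the controls and 108.2 ± 3.48 RPKM in the knockdown, behind IER3.

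Of the 4 IER genes, 2 fell. IER3, a regulator of cell survival with the highest level per length of the list (315.2 ± 1.78 RPKM in the controls), fell from 427.5 ± 2.41 to 374.5 ± 12.2 CPM, a log2 fold change of -0.19 (adjusted p = 0.00783). IER5 fell from 168.7 ± 15.2 to 145.4 ± 11.2 CPM, a log2 fold change of -0.22 (adjusted p = 0.0314), and it was the one called gene of the list whose groups overlap. IER2 measured 35.3, 29.5 and 31.9 CPM against 37.0, 34.6 and 39.9 CPM. Its groups overlapped by 1 library, and its log2 fold change of 0.21 (interval 0.03 to 0.38) had an adjusted p of 0.0741. IER5L was at 23.1 ± 1.69 and 20.4 ± 3.11 CPM, with a log2 fold change of -0.18 (interval -0.39 to 0.04). Exons of IER2, IER3 and IER5L share 30.8%, 26.5% and 39.2% of their bases with a gene on the opposite strand, and since the library kit does not mark strand, reads from the partners cannot be told apart. The same limit holds for smaller shares in MAFK (18.1%), JUNB (14.2%), NR4A1 (10.3%), KLF11 (9.1%), CSRNP1 (6.35%) and EGR3 (3.38%).

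The KLF zinc finger factors also split. KLF6 measured 86.2, 92.2 and 96.2 CPM in the controls and 65.2, 70.3 and 63.9 CPM in the knockdown. The groups were far apart, and the log2 fold change was -0.46 (SE 0.0634, adjusted p = 4.04e-05). KLF10, a TGF-beta inducible repressor, rose from 69.1 ± 0.476 to 82.8 ± 6.82 CPM, a log2 fold change of 0.26 (adjusted p = 0.00697). KLF4, a factor of epithelial differentiation, lay below the controls in each knockdown library (18.6 ± 0.532 and 16.3 ± 0.373 CPM) without passing the test (log2 fold change -0.20, adjusted p = 0.0951). KLF2, KLF9 and KLF11 were not called, with log2 fold changes of -0.05, -0.03 and 0.05.

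None of the 4 DUSP genes, phosphatases that switch off MAP kinases, was called. DUSP1, the founding member, measured 13.0, 14.4 and 12.5 CPM in the controls and 13.5, 12.6 and 12.8 CPM in the knockdown. These values interleave, with a log2 fold change of -0.03 (interval -0.23 to 0.17). DUSP10 was higher in each knockdown library (3.91 ± 0.254 and 4.99 ± 0.689 CPM, log2 fold change 0.35, interval 0.04 to 0.67, adjusted p = 0.0971). DUSP2 and DUSP8 had log2 fold changes of -0.12 and -0.05.

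The NR4A orphan nuclear receptors were not called either. NR4A1 was at 41.2 ± 2.03 and 41.0 ± 2.12 CPM, a log2 fold change of -0.01 with an interval from -0.16 to 0.14. NR4A2 and NR4A3 were under 3 CPM on average in both groups, and their intervals were wide, from -0.01 to 0.91 around 0.45 for NR4A2 and from -0.32 to 0.63 around 0.16 for NR4A3. At this depth neither the absence of a change nor a change was shown for these 2 genes.

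Of the remaining listed genes, HES4, a basic helix-loop-helix repressor, fell from 20.4 ± 1.28 to 15.7 ± 2.27 CPM (log2 fold change -0.37, adjusted p = 0.0126). BHLHE40, a repressor of the same wider family that also acts in the circadian clock, rose from 103.8 ± 2.33 to 115.2 ± 0.534 CPM (log2 fold change 0.15, adjusted p = 0.0482). Of the kinases, PIM1, a constitutively active serine/threonine kinase, fell from 55.2 ± 1.81 to 48.9 ± 0.756 CPM (log2 fold change -0.18, adjusted p = 0.0478). PIM3 and SGK1 were not called, with log2 fold changes of -0.17 (interval -0.33 to -0.01) and 0.17 (interval -0.08 to 0.41). NFKBIZ, a nuclear inhibitor of kappa B protein, fell from 22.5 ± 1.93 to 18.6 ± 0.565 CPM (log2 fold change -0.27, adjusted p = 0.0274). ZC3H12A, an RNase that cleaves inflammatory mRNAs, had a log2 fold change of -0.05 and was not called. CSRNP1, a nuclear protein induced by AXIN1, lay below the controls in each knockdown library (log2 fold change -0.20, adjusted p = 0.127).

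**Figure D3:**
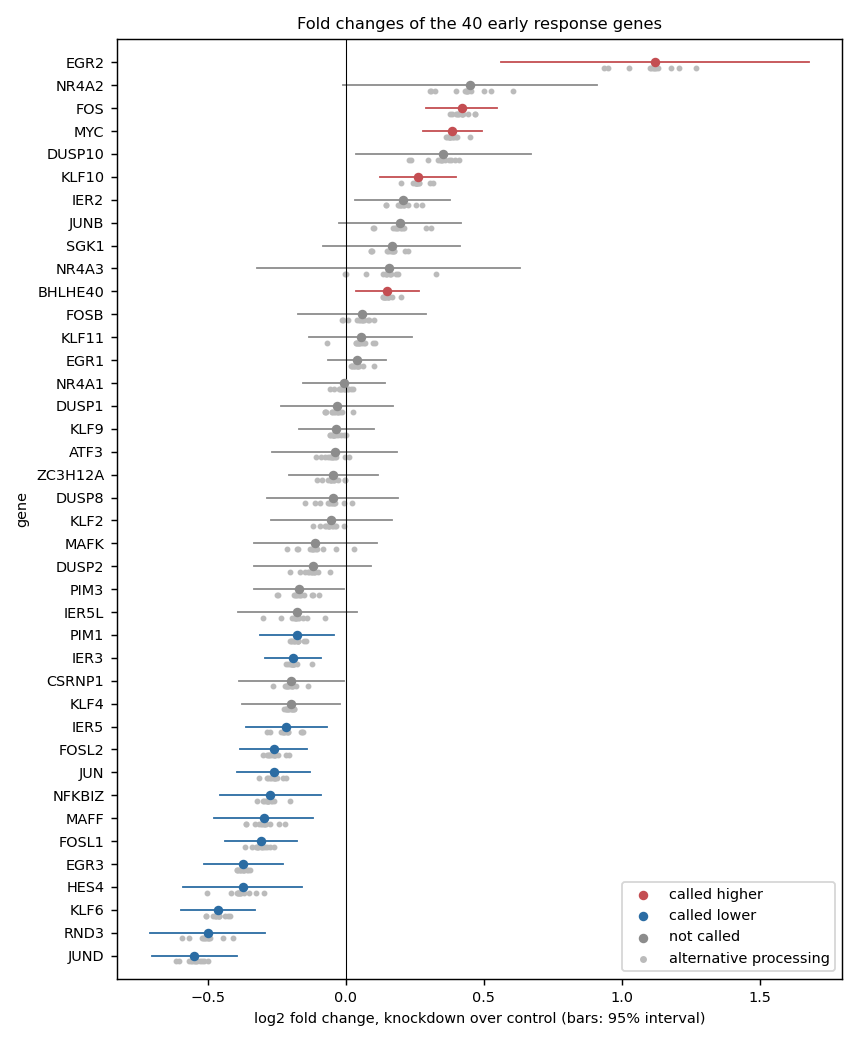
Log2 fold change of each of the 40 early response genes (rows, ordered by value), knockdown over control, with a bar for the 95% interval, red and blue for genes called higher and lower, and small grey points for the values under the 13 alternative analyses. EGR2 stands highest at 1.12 with a wide interval, JUND lowest at -0.55, and the grey points of all 18 called genes stay on one side of 0.

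Calls near the threshold depended on single libraries or settings. Of the 18 called genes, 11 kept the call in all 13 alternatives (FOS, FOSL1, FOSL2, JUN, JUND, EGR2, EGR3, MYC, KLF6, KLF10 and RND3), and none of the 18 changed sign. BHLHE40 lost its call in 9 of the 13 and PIM1 in 8, among them each fit without 1 of the 6 libraries, with adjusted p up to 0.212 and 0.181. IER5 lost it without control replicate 1 or 3, without knockdown replicate 1 or 2 and with the abundance trend removed (adjusted p up to 0.146). MAFF lost it without control replicate 1 or 3 (up to 0.0749), and NFKBIZ without control replicate 2 or 3 or knockdown replicate 1 (up to 0.123). IER3 (up to 0.0752) and HES4 (0.0623) lost it without knockdown replicate 1, which left 8 genes called lower, and IER3 also with the abundance trend removed.

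Some of the spread between replicates went with base composition. Over the 13 listed genes with a GC content of at least 60% (a split chosen after seeing the values), which include JUNB, JUND, IER2, IER5L, MAFK and PIM3, the median log2 deviation from the group mean was -0.11 in control replicate 2 and -0.13 in knockdown replicate 2, against 0.08 in control replicate 1 and 0.11 in knockdown replicate 3. Over all 2570 tested genes that rich in GC, the same libraries were at -0.10, -0.11, 0.08 and 0.10. With trends of the fold change with GC content and gene length removed in each library, 7 of the 40 genes were called higher and 15 lower, while the calls over all genes rose as well, from 2329 to 3091 higher and from 2095 to 3158 lower. JUNB (log2 fold change 0.21, adjusted p = 0.0125) and IER2 (0.21, adjusted p = 0.00453) joined the genes called higher, IER5L and PIM3 joined those called lower, and JUND stayed at -0.54.

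**Figure D4:**
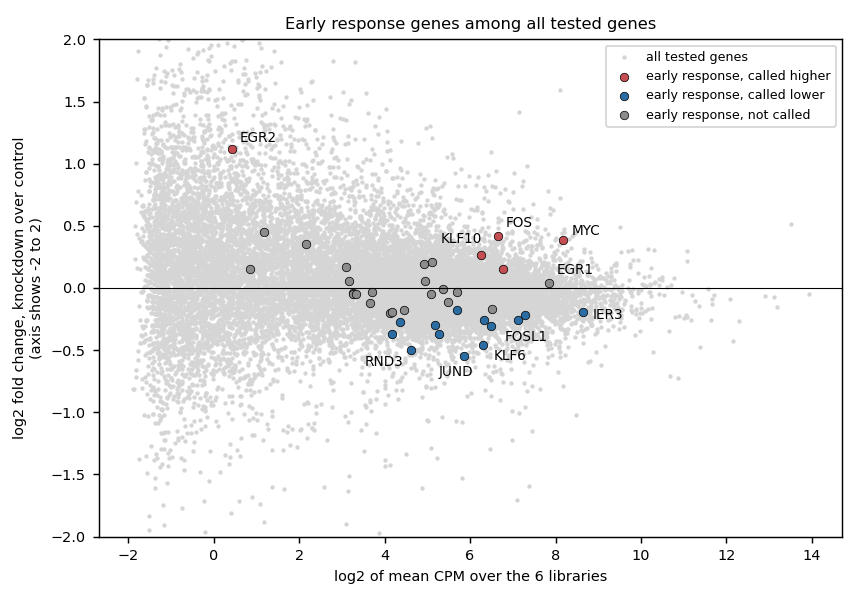
Log2 fold change (knockdown over control) against the log2 of the mean CPM for all tested genes (grey) and the 40 early response genes (red called higher, blue called lower, dark grey not called), with the vertical axis limited to -2 to 2 so that more extreme genes are not shown. EGR2 is at the low end of expression, and MYC, FOS, IER3 and JUND lie among the well expressed genes, within the grey cloud.

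AU-rich sequence elements were more frequent in the 40 mRNAs than over all tested coding genes, although decay rates were not measured. At least 1 AUUUA pentamer was present in the 3′ UTR of 37 of the 40 (92.5%), against 68.2% of 13586 tested coding genes, and at least 3 in 30 (75% against 40.6%). The nonamer was present in 9 (22.5% against 8.31%), CSRNP1, DUSP1, DUSP8, FOS, FOSL2, IER5, MAFF, MAFK and PIM1. Per kilobase of 3′ UTR the median was 2.49 pentamers for the listed genes and 1.501 for all tested coding genes, with median 3′ UTR lengths of 1228 and 1062 bases. IER2, BHLHE40 and ZC3H12A had no pentamer in the transcript used.

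Genes with these elements were called in both directions. Of the 9 with the nonamer, FOS was called higher, FOSL2, IER5, MAFF and PIM1 were called lower, and 4 were not called. Of the 1129 tested coding genes with the nonamer, 164 were called higher and 182 lower. Of the 12457 without it, 1834 were called higher and 1774 lower. MYC and IER3, with 8.40 and 8.14 pentamers per kilobase, were called in opposite directions. HES4, called lower, had 10.5 per kilobase, but this was 1 pentamer in a 3′ UTR of 95 bases. Of the 13 listed genes with at least 5 pentamers, 1 was called higher and 6 lower, and of the 27 with fewer, 4 and 7. Of the 3796 tested coding genes with at least 5, 587 were called higher and 546 lower, and of the 9790 with fewer, 1411 and 1410. Over bins of the pentamer count, 13.5% to 16.1% of tested coding genes were called higher and 13.2% to 15.5% lower. Across all tested coding genes the median log2 fold change was -0.02 for the 1129 with the nonamer and -0.01 for the 12457 without it, and over bins of the pentamer count it ran from -0.02 to 0.0046. The 3′ UTR is that of 1 annotated transcript per gene, and which 3′ end these cells use was not measured.

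**Figure D5:**
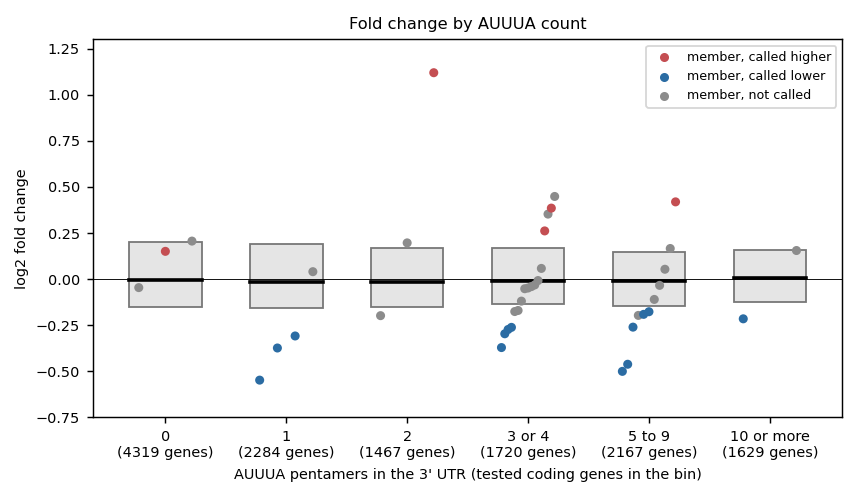
Log2 fold change by the number of AUUUA pentamers in the 3′ UTR, with grey boxes from the lower to the upper quartile and a black line at the median of all tested coding genes in each bin, and points for the 40 early response genes coloured by call. The medians stay within -0.02 and 0.0046 in every bin, and the listed genes called higher and lower occur together in the bins with 3 or 4 and 5 to 9 pentamers.

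Other early response genes were also called more often lower than higher. Of 48 tested genes on a longer list of early response and delayed early genes, 8 were called higher (16.7%, background 13.3%) and 16 lower (33.3%, background 11.9%). The median log2 fold change was -0.06. This list too was chosen with earlier results of these data known, so it is no independent check. The largest called changes were those of CYR61 (-2.69), CTGF (-1.63) and PLK2 (-1.03), all lower, and of ID3 (0.86), higher. CYR61 and CTGF encode secreted matricellular proteins, PLK2 a polo-like kinase and ID3 an inhibitor of basic helix-loop-helix factors. Without CYR61 and CTGF the list had 8 higher and 14 lower of 46.

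Of 25 tested kinases and factors that induce early response genes, 3 were called higher and 3 lower (12% each, backgrounds 13.3% and 11.9%). MAP2K6, a kinase that activates p38, was higher (0.664 ± 0.187 and 1.69 ± 0.261 CPM, log2 fold change 1.35), as was MAPK14, p38 alpha itself (0.31). SRF, which is also on the longer list above, was lower (-0.36), as was RPS6KA4, a kinase of CREB and histone H3 (-0.33). Of 13 proteins that bind AU-rich elements, 1 was called higher (7.69%, background 13.3%) and none lower (background 11.9%). The gene called higher was AUH (log2 fold change 0.32). ZFP36, ZFP36L1 and ZFP36L2, which recruit CCR4-NOT to such mRNAs, had log2 fold changes of -0.16, 0.01 and 0.09 and were not called. The ZFP36 genes are on the longer list too.

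Lower calls were also made among long-lived mRNAs. Of 23 tested housekeeping genes with long-lived mRNAs, 2 were called higher (8.70%, background 13.3%) and 8 lower (34.8%, background 11.9%). Among all tested genes with a mean of at least 10 CPM, 17.8% were called lower. The 8 included ACTB (log2 fold change -0.42), TUBA1B (-0.31), GAPDH (-0.26) and ENO1 (-0.24), and the median of the 23 was 0.01. Of 10 heat shock chaperone genes, which report stress of the cells, none was called higher (background 13.3%) and 2 lower (20%, background 11.9%). These 2 were DNAJB1 (-0.38) and DNAJA1 (-0.25). Since the values are relative to each library's total, a change shared by all mRNAs could not be seen.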

How the data were processed

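RNA-seq counts per gene were analysed for 3 CNOT7 knockdown and 3 control libraries, grouped by the genotype in the labels. The authors deposited raw counts per gene, without normalization. Per the submitters' processing notes, the tools were CASAVA 1.8, fastp, HISAT2 2.0.5, featureCounts 1.5.0-p3 and DESeq2 1.20.0 on GRCh38 (hg38), with no role given. The strand setting was not given in the sources used here, and the kit (NEBNext Ultra RNA) does not mark strand. Identifiers, positions and gene lengths of all 58735 genes matched GENCODE 29. No columns of other samples were left unused (0).

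Counts were filtered with filterByExpr, scaled with TMM and tested with edgeR 4.0.16 (quasi-likelihood test, R 4.3.3) with no replicate term, and p-values were adjusted by Benjamini-Hochberg over all 17574 tested genes with a threshold of 0.05. SEs were taken from the F statistic and the log2 fold change, and intervals are 95%. On simulated counts with this design (17305 genes), 57 of 97 genes with an absolute log2 fold change of 0.5 and 80 of 98 with 1 were called, and 14 of 17110 unchanged genes. The simulation was given 200 changed genes, while 4424 were called in the data, so these rates need not carry over. CPM and RPKM were computed from the counts with TMM factors. RPKM uses the length of all annotated exons, so it understates genes with long unused exons. Alternatives were DESeq2 1.42.0, RLE factors, no filter, a minimum of 10 counts per library, a replicate block, removal of a trend with abundance (cyclic loess of limma 3.58.1) or with GC content and length (loess, span 0.3), each library left out, a fold change limit of 0.5 on the log2 scale, and leaving out listed genes with shared exonic bases. Per-library log2 deviations used CPM plus 0.5.

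Values in every library are given for called genes with an absolute log2 fold change of at least 0.5 and for FOS, JUN, EGR1, MYC, ATF3, IER2, KLF6 and DUSP1. Other called genes are given by means, and comparison lists by counts, up to 4 called genes with the largest change and the ZFP36 genes. The 40 genes and the comparison lists were chosen with earlier results of these data known, and the level of 10 CPM and the GC content of 60% were set after the values were seen. Motifs were searched in 3′ UTRs of GENCODE 29 transcripts and in RefSeq promoters of 300 bases. The result for 1 marker gene is not reported here.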

Additional observations from a re-analysis of the deposited data

How the results depend on the processing

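The calls were made with 3 libraries per group, and genes near 1 CPM such as EGR2, NR4A2 and NR4A3 had wide intervals. For the 40 genes, calls higher and lower were 4 and 13 with DESeq2 (1773 and 2084 over all genes), RLE factors (2250 and 2223) and no filter (2201 and 2342), and 5 and 13 with at least 10 counts in every library (2194 and 2008). They were 5 and 10 with the trend with abundance removed (2187 and 1841), where the median log2 fold change went from -0.05 to -0.11. The replicate numbers were not treated as pairs, since the methods state no pairing. The correlation of the deviations was low for numbers 1 and 3 (r = 0.0228 and -0.0153) and higher for number 2 (0.1535). Control 1 and knockdown 3, which do not share a number, had a similar value (0.1322). The median deviation of GC-rich genes nevertheless had the same sign in both libraries of each number. With the replicate block, 7 were higher and 16 lower, and over all genes 3202 were higher and 3306 lower, against 2329 and 2095 without it. With GC content and length trends removed, 3091 were higher and 3158 lower over all genes. With called genes limited to changes of at least 0.5 on the log2 scale, 1223 were higher and 445 lower over all genes, and 1 higher and 2 lower of the 40. Leaving out 1 library gave 4 to 6 of the 40 higher and 8 (without knockdown replicate 1) to 14 lower, with a median between -0.099 and -0.058. Over all genes it gave 1626 to 2323 higher and 1367 (without control replicate 3) to 2219 lower. CNOT7 stayed between -2.13 and -1.98. Without the 11 listed genes that share exonic bases with another gene the median was -0.05. Of the 22 genes not called, 16 were called in no alternative, and 8 changed sign in some alternative. With the abundance trend removed, FOSB was at -0.013 and NR4A1 at 0.019, each with the other sign. Over the fits without 1 library, the log2 fold changes crossed 0 for FOSB (-0.010 to 0.102), ATF3 (-0.089 to 0.012), MAFK (-0.213 to 0.029), KLF11 (-0.067 to 0.105), DUSP1 (-0.076 to 0.025), DUSP8 (-0.147 to 0.023), NR4A1 (-0.056 to 0.028) and NR4A3 (-0.0028 to 0.325). The causes were not tested.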
